A study of Arabidopsis thaliana with 6 samples.

Results

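The 10 genes described here form the core of salicylic acid (SA) synthesis and signaling in *Arabidopsis thaliana*, together with the pathogenesis-related (*PR*) genes that serve as its usual readout. They were chosen by locus name: *EDS1* (AT3G48090), *PAD4* (AT3G52430), *CBP60G* (AT5G26920), *SARD1* (AT1G73805), *ICS1* (AT1G74710), *NPR1* (AT1G64280), *NIMIN1* (AT1G02450), *PR1* (AT2G14610), *PR2* (AT3G57260) and *PR5* (AT1G75040). The choice was made with earlier results of these data known. All 10 were among the 19616 genes of the count table, and all 10 passed the filter on low counts. RNA-Seq was performed on ground whole plants of the wild-type ecotype Col-0 at 13 days after germination. In the treated group, 3 libraries were made from seedlings that had received *Priestia megaterium* YC4-R4, a growth-promoting soil bacterium, in 0.45% NaCl. In the mock group, 3 libraries came from seedlings that had received the same 0.45% NaCl carrier without bacteria. Both groups were grown in plates and then in pots of soil, where the inoculum was dispensed, and were collected 7 days after treatment (DAT).

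SA is made mainly from isochorismate, which forms in the chloroplast, and SA accumulates when plants detect pathogens. EDS1 and PAD4 relay signals from immune receptors, CBP60g and SARD1 switch on the synthesis gene *ICS1*, and NPR1 binds SA and activates *PR* genes together with TGA transcription factors. The pathway is known for restricting biotrophic pathogens in leaves and for systemic acquired resistance, and its activity is commonly read from *PR1*.

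Total counts were 21904205, 15292377 and 20756449 in the treated libraries, and 10804936, 12263720 and 20040520 in the mock libraries, so counting error was larger in mock replicates 1 and 2. Levels are CPM, counts set relative to the total of each library, after scaling by trimmed mean of M-values (TMM) factors, given as mean ± SD with n = 3 per group. Differences are log2 fold changes of treated over mock from edgeR's quasi-likelihood test fitted to 19615 genes, with their SE and with p adjusted by Benjamini-Hochberg over those genes. A gene was called when its adjusted p was at most 0.05 and its fold change was at least 1.5, which is 0.585 on the log2 scale. Of all genes tested, 1.54% were called lower and 1.73% higher in treated seedlings. By adjusted p alone, 4.52% were lower and 5.10% were higher. The median log2 fold change of all genes was -0.005.

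In seedlings treated with *P. megaterium* YC4-R4, 2 of the 10 genes were called lower and none higher, against 1.54% and 1.73% of all genes. These were *CBP60G*, a transcription regulator of SA synthesis, and *PR5*, a thaumatin-like defense protein. By adjusted p alone 5 of the 10 were lower, against 4.52% of all genes tested, adding *SARD1*, *PAD4* and *NPR1*. The other 5, *ICS1*, *EDS1*, *NIMIN1*, *PR1* and *PR2*, did not pass. All 10 estimates lay below 0, as did 51.0% of all genes tested, with a median of -0.30. An unadjusted p under 0.05 was found for 8 of the 10 and for 23.3% of all genes tested. In 7 of the 10, every treated library lay below every mock library, a pattern found in 13.8% of all genes tested. Since the genes were chosen with earlier results known, these shares are given for description only. The summed level of the 10 genes was 653 to 731 CPM in treated libraries and 817 to 924 CPM in mock libraries, without overlap. Its largest parts were *PR2* (means of 199 CPM in treated and 245 CPM in mock seedlings) and *PR1* (167 and 206 CPM). Neither of these 2 genes passed by adjusted p. Because whole seedlings were ground, fewer cells expressing a gene and less RNA per cell cannot be told apart.

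**Figure D1:**
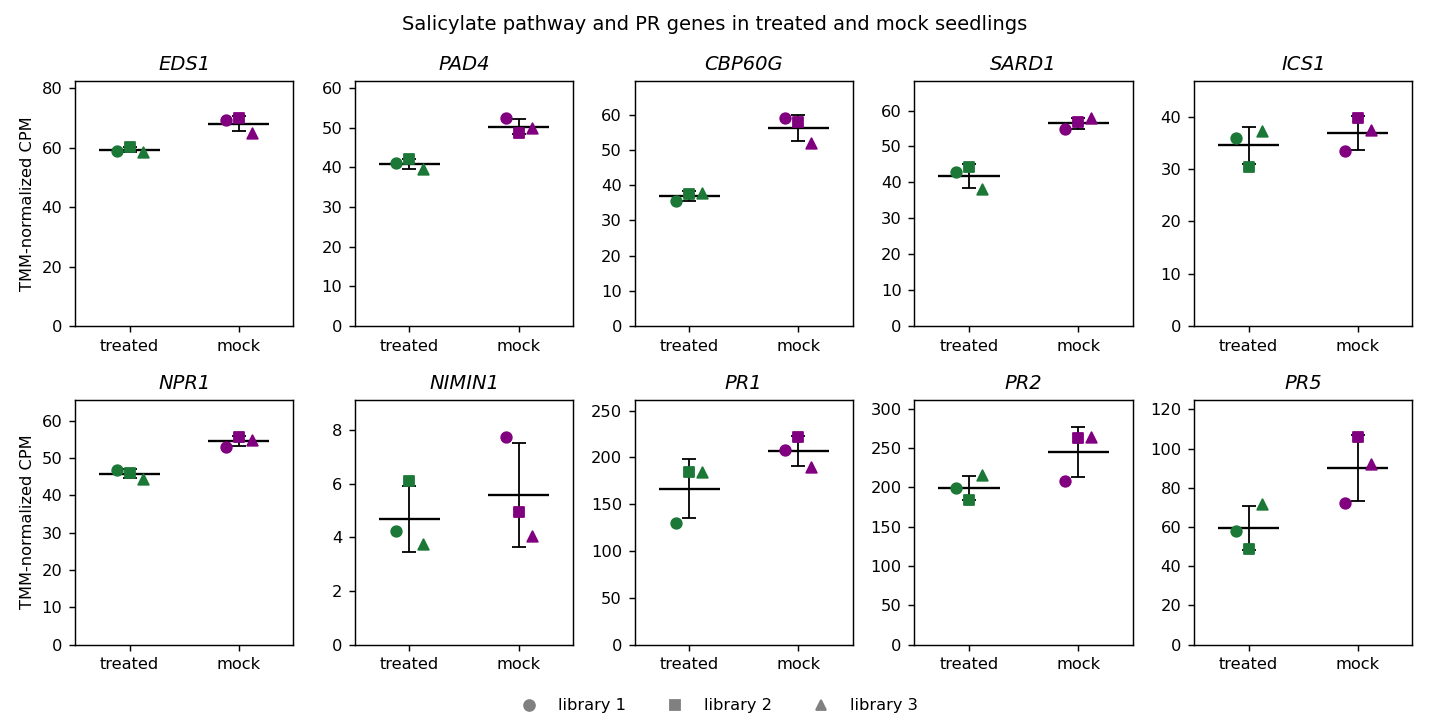
TMM-normalized CPM of the 10 genes (vertical axes, each starting at 0) in the 3 treated and the 3 mock libraries, with 1 point per library, the horizontal bar at the group mean and error bars of 1 SD. The treated points of *CBP60G* (35.4 to 37.9 CPM) lie well below its mock points (52.0 to 59.0 CPM), while those of *ICS1* and *NIMIN1* overlap the mock points.

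The sequences just upstream of 4 genes are printed because they carry the links the pathway is named for, namely *ICS1* as the gene that CBP60g and SARD1 act on, those regulators themselves, and *PR5* as the *PR* gene that was called. Each is the 250 bases before the annotated transcript start, written 5′ to 3′ on the strand of the gene and read from the RefSeq genome TAIR10.1. Capitals mark matches to 4 short motifs on either strand: TTGAC (the W-box core bound by WRKY factors), TGACG (the core bound by TGA factors), GAAATTT (bound by CBP60g and SARD1) and CGCG (the core bound by CAMTA factors).
ICS1 chr1:28070045-28070294, plus strand: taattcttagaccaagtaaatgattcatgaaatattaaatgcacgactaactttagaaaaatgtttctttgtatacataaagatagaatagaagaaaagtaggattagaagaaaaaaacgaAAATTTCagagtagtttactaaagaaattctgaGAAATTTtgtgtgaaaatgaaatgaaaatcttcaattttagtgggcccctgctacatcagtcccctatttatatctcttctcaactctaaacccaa
CBP60G chr5:9475429-9475678, plus strand: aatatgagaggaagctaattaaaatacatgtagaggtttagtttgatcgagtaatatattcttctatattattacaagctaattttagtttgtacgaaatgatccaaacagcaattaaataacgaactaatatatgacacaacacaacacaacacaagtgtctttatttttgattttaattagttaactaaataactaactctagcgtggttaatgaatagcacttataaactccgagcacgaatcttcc
SARD1 chr1:27749249-27749498, minus strand: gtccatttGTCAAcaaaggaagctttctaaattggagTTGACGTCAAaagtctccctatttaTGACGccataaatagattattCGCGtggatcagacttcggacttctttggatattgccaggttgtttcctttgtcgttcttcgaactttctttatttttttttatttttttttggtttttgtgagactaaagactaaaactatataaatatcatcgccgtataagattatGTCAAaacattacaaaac
PR5 chr1:28177420-28177669, plus strand: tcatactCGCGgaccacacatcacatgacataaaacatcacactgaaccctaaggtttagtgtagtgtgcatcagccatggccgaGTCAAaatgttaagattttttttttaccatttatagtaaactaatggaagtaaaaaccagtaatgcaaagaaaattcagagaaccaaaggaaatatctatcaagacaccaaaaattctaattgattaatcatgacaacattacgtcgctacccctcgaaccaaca
The *ICS1* window held GAAATTT on each strand, at 129 and 96 bases upstream of the start. This motif was found in 12.7% of all 19548 windows of that length, and in no other of the 10 genes. The *SARD1* window held 4 TTGAC, 3 TGACG and 1 CGCG matches, some of which overlap, since TTGACG contains both of the first 2 motifs. Its CGCG lay 167 bases upstream. The *PR5* window held 1 TTGAC at 165 bases and 1 CGCG at 243 bases upstream of the start. The *EDS1* and *PR1* windows each held 1 TTGAC, at 96 and 104 bases, so 4 of the 10 windows carried this motif, against 45.1% of all windows. TGACG was found in 19.3% and CGCG in 10.7% of all windows. The windows of *CBP60G*, *PAD4*, *NPR1*, *PR2* and *NIMIN1* held none of these letters, which says nothing about sequence farther upstream.

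*EDS1* and *PAD4* encode lipase-like proteins that bind each other and act upstream of SA synthesis. *EDS1* lies on the minus strand of chromosome 3 (17755329 to 17758147 in TAIR10.1). It measured 58.9, 60.2 and 58.6 CPM in treated seedlings, against 69.4, 69.8 and 65.0 CPM in mock seedlings. The groups did not overlap, and the treated libraries lay within a narrow range. The log2 fold change was -0.20 (SE 0.06), and it did not pass the adjusted limit (edgeR's quasi-likelihood test, adjusted p = 0.0820). Up to 85.4% identity over 1056 bases was found between *EDS1* and its neighbouring copy *EDS1B* (AT3G48080), so reads may have been split between them.

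*PAD4* lies on the plus strand of chromosome 3 (19431095 to 19434450). It measured 41.0, 42.0 and 39.6 CPM in treated seedlings, against 52.3, 48.6 and 49.8 CPM in mock seedlings. Every treated library was below every mock library, with means of 40.9 ± 1.23 CPM in treated and 50.3 ± 1.88 CPM in mock seedlings. *PAD4* was lower in treated seedlings by adjusted p, at a log2 fold change of -0.30 (SE 0.07, edgeR's quasi-likelihood test, adjusted p = 0.0160), but did not reach the fold limit. The adjusted p was between 0.0171 and 0.0663 with each library left out in turn, passing in 3 of 6 such fits.

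CBP60g and SARD1 are closely related calmodulin-binding-protein family members that bind the *ICS1* promoter, and only CBP60g binds calmodulin. *CBP60G* lies on the plus strand of chromosome 5 (9475679 to 9478777). It measured 35.4, 37.6 and 37.9 CPM in treated seedlings, against 59.0, 57.9 and 52.0 CPM in mock seedlings. The groups were far apart compared with the spread within each, at 37.0 ± 1.35 CPM in treated and 56.3 ± 3.76 CPM in mock seedlings. *CBP60G* was called lower, with a log2 fold change of -0.60 (SE 0.07) and a 95% confidence interval of -0.77 to -0.44 (edgeR's quasi-likelihood test, adjusted p = 0.000347). Its level in treated seedlings was thus 34.2% lower. The fold change lies next to the limit of 1.5: it was -0.57 without treated replicate 1, -0.57 without mock replicate 1 and -0.58 without mock replicate 2, just short of the limit. The adjusted p was at most 0.00414 in all 15 alternatives that were run for single genes.

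*SARD1* lies on the minus strand of chromosome 1 (27744790 to 27749248). It measured 43.0, 44.3 and 38.1 CPM in treated seedlings, against 54.8, 56.8 and 57.8 CPM in mock seedlings. Here too every treated library was below every mock library, the lowest being treated replicate 3. *SARD1* was lower by adjusted p, at a log2 fold change of -0.44 (SE 0.07, edgeR's quasi-likelihood test, adjusted p = 0.00319), and did not reach the fold limit. It passed by adjusted p in 15 of 15 alternatives. The annotated locus AT1G73790 overlaps *SARD1* on the opposite strand. With no strand setting of the counting stated, how reads from the overlap were counted is not known.

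*ICS1* encodes isochorismate synthase, the enzyme that converts chorismate to isochorismate, and lies on the plus strand of chromosome 1 (28070295 to 28074177). It measured 36.0, 30.5 and 37.2 CPM in treated seedlings, against 33.4, 39.7 and 37.5 CPM in mock seedlings. The groups overlapped, with means of 34.6 ± 3.55 CPM in treated and 36.8 ± 3.19 CPM in mock seedlings. The log2 fold change was -0.09 (SE 0.09, edgeR's quasi-likelihood test, adjusted p = 0.621), with a 95% confidence interval of -0.29 to 0.11. Across the 15 alternatives it lay between -0.15 and -0.01.

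*ICS1* was set beside its regulators as ratios within each library, chosen after the values were seen. The log2 ratio of *CBP60G* to *ICS1* was -0.02, 0.30 and 0.03 in treated libraries, against 0.82, 0.55 and 0.47 in mock libraries. The ratios of the groups did not overlap and differed by -0.51, with p = 0.1 in an exact two-sided permutation test, which is the smallest p that 3 against 3 libraries can give. For *SARD1* to *ICS1* the difference was -0.34 (exact permutation p = 0.2), and the groups overlapped. For *CBP60G* to *SARD1* it was -0.17 (exact permutation p = 0.2), likewise with overlap.

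NPR1 is an SA receptor and the co-activator of *PR* genes, and lies on the minus strand of chromosome 1 (23852748 to 23855658). *NPR1* measured 46.8, 46.1 and 44.5 CPM in treated seedlings, against 53.0, 55.7 and 54.8 CPM in mock seedlings. All treated libraries were below all mock libraries, and the spread within each group was small (45.8 ± 1.17 CPM in treated and 54.5 ± 1.40 CPM in mock seedlings). *NPR1* was lower by adjusted p, at a log2 fold change of -0.25 (SE 0.07, edgeR's quasi-likelihood test, adjusted p = 0.0312), short of the fold limit. With each library left out in turn the adjusted p was between 0.0411 and 0.118, passing in 2 of 6 such fits, and it was 0.0702 in DESeq2. The annotated loci AT1G64270 and AT1G08667 overlap *NPR1* on the opposite strand, with the same limit.

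NIMIN1 binds NPR1 and restrains its action on *PR1*. *NIMIN1*, on the minus strand of chromosome 1 (497917 to 498539), measured 4.22, 6.10 and 3.77 CPM in treated seedlings, against 7.75, 4.94 and 4.05 CPM in mock seedlings. The groups overlapped, and only 60 to 95 reads per library lay behind these values. The log2 fold change was -0.22 (SE 0.24, edgeR's quasi-likelihood test, adjusted p = 0.656), with a 95% confidence interval of -0.75 to 0.32. A difference of that size was not detectable at this depth and spread, and the sign changed to 0.06 without mock replicate 1. The biological coefficient of variation (BCV), the fitted spread between replicates beyond counting error, was 0.179 for *NIMIN1*, higher than in 98.7% of genes.

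*PR1* encodes a small secreted protein of the CAP family and is the usual marker of SA signaling. It lies on the minus strand of chromosome 2 (6241640 to 6242541). *PR1* measured 130, 185 and 185 CPM in treated seedlings, against 208, 222 and 190 CPM in mock seedlings. The groups did not overlap, but treated replicates 2 and 3 lay close to mock replicate 3, and treated replicate 1 stood below the rest. The log2 fold change was -0.31 (SE 0.12), which did not pass (edgeR's quasi-likelihood test, adjusted p = 0.147). It was between -0.39 and -0.16 across the alternatives, and none passed. *PR1* shares 80.4% identity over 734 bases with *PRB1* (AT2G14580).

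*PR2* encodes a beta-glucanase that degrades callose and fungal cell walls, and lies on the minus strand of chromosome 3 (21188397 to 21189967). It measured 199, 184 and 215 CPM in treated seedlings, against 208, 263 and 264 CPM in mock seedlings. The groups overlapped, because mock replicate 1 lay below treated replicate 3. The log2 fold change was -0.30 (SE 0.10, edgeR's quasi-likelihood test, adjusted p = 0.0885), and the test was not passed. Without mock replicate 1 the adjusted p was 0.0110, the only alternative of 15 in which *PR2* passed.

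*PR5* encodes a thaumatin-like protein and lies on the plus strand of chromosome 1 (28177670 to 28179022). It measured 58.1, 48.9 and 71.6 CPM in treated seedlings, against 72.4, 106 and 92.4 CPM in mock seedlings. The groups were separated by less than 1 CPM, between treated replicate 3 and mock replicate 1, and the spread within each was wide (59.5 ± 11.4 CPM in treated and 90.2 ± 16.8 CPM in mock seedlings). *PR5* was called lower, with a log2 fold change of -0.60 (SE 0.14) and a 95% confidence interval of -0.91 to -0.28 (edgeR's quasi-likelihood test, adjusted p = 0.0219). The call was lost without treated replicate 1 (adjusted p = 0.0861), mock replicate 2 (0.108) or mock replicate 3 (0.0970), and without treated replicate 2 the fold change of -0.48 was under the limit. Its BCV of 0.125 was higher than that of 92.2% of genes. Parts of *PR5* share 75.8% identity over 854 bases with AT1G75030 and 77.9% over 683 bases with AT1G75050.

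Within the *PR* genes, the log2 ratio of *PR5* to *PR2* was -1.78, -1.91 and -1.59 in treated libraries, against -1.52, -1.31 and -1.51 in mock libraries. The ratios did not overlap (difference -0.31, exact permutation p = 0.1, the smallest that 3 against 3 libraries can give). This ratio and those below were also chosen after the values were seen. The ratio of *PR1* to its activator *NPR1* overlapped between the groups (difference -0.07, exact permutation p = 1). The ratio of *PAD4* to *EDS1* differed by -0.10 (exact permutation p = 0.2). Adjusted over the 6 ratios, p was 0.24 for 5 of them and 1 for *PR1* to *NPR1*.

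**Figure D2:**
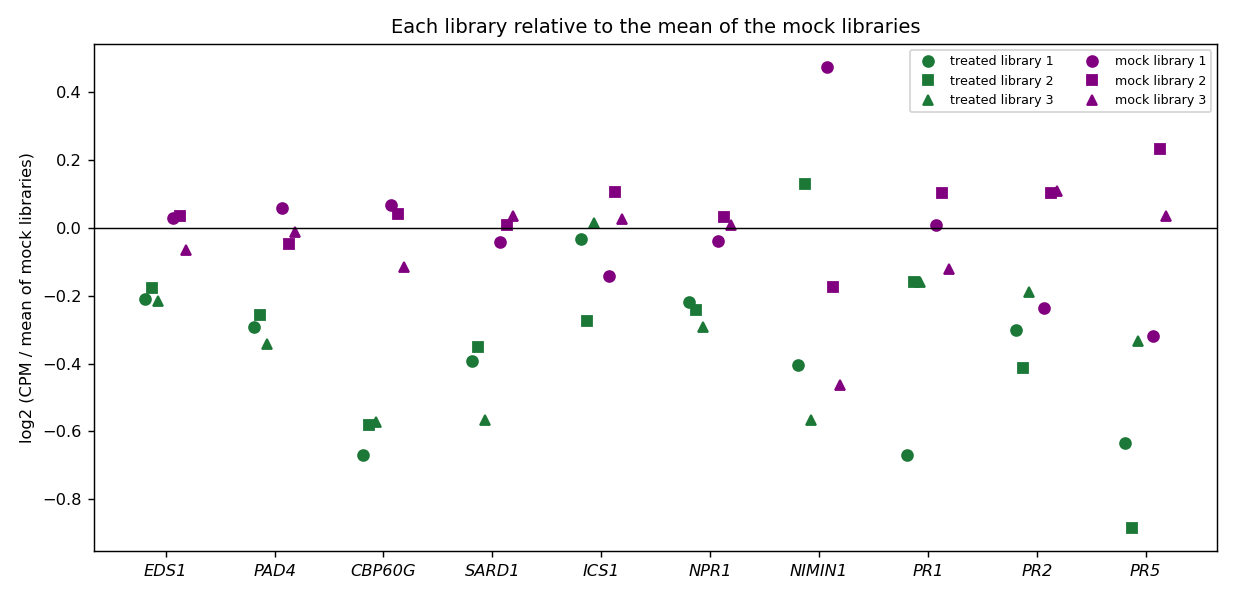
The log2 of the CPM of each library over the mean of the 3 mock libraries (vertical axis) for the 10 genes (horizontal axis), with treated libraries in green to the left of mock libraries in purple and 1 symbol per replicate number. *PR1*, *PR2*, *PR5* and *NIMIN1* spread more widely within each group than *EDS1*, *PAD4* and *NPR1*, and for *PR1* and *PR5* different treated libraries are the lowest (130 CPM in replicate 1 and 48.9 CPM in replicate 2).

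Levels were compared between genes only per length, as CPM per kilobase of annotated exon. *PR1* was the highest of the 10 at 185 in treated and 229 in mock seedlings, followed by *PR2* at 135 in treated and 166 in mock seedlings. *PR5* ranked 3 at 54.4 in treated and 82.3 in mock seedlings, and *EDS1* ranked 4 at 23.2 in treated and 26.7 in mock seedlings. *CBP60G* ranked 8 at 16.0 in treated seedlings and 5 at 24.4 in mock seedlings, and *SARD1* ranked 7 at 17.4 in treated seedlings and 6 at 23.6 in mock seedlings. *ICS1* (15.8 in treated and 16.9 in mock seedlings) and *NIMIN1* (7.54 in treated and 8.95 in mock seedlings) were the lowest in both groups. The levels from rank 5 to rank 9 lay close to each other in treated seedlings, and no test of that order was made.

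**Figure D3:**
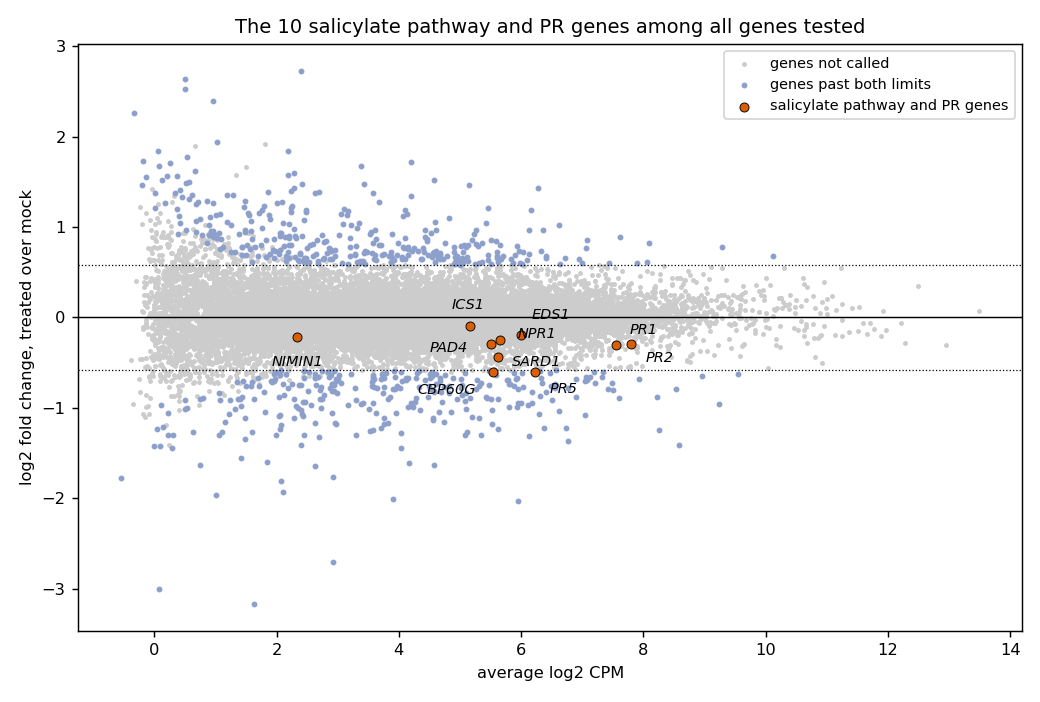
The log2 fold change of treated over mock (vertical axis) against the average log2 CPM (horizontal axis) of the 19615 genes tested, with genes past both limits in blue, the 10 salicylate pathway and *PR* genes in orange and dotted lines at the fold limit. The orange points all lie below 0, and only *CBP60G* and *PR5*, both at -0.60, reach the lower dotted line.

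Further genes were examined through 7 lists with 64 genes, of which 62 were in the table. These lists, too, were chosen with earlier results of these data known. In the last list, 4 of the 62 are PR-type genes of other pathways or relatives of *PR* genes, set beside the salicylate pathway for comparison. By both limits 2 of the 62 were lower in treated seedlings (*WRKY46* and *BG3*), against 1.54% of all genes tested. Only *SAG13* was higher, against 1.73% of all genes tested. By adjusted p alone 9 of the 62 were lower, against 4.52% of all genes tested, and 3 were higher, against 5.10%. An unadjusted p under 0.05 was found for 25 of the 62, against 23.3% of all genes tested, a share to be read beside each list below. The median log2 fold change was -0.06, and 36 of the 62 lay below 0, against 51.0% of all genes tested.

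The partners of EDS1 and PAD4 and the helper immune receptors that they signal through were lower in 4 of 7 cases by adjusted p. Of all genes tested, 4.52% were lower by this limit. In 6 of the 7, every treated library lay below every mock library, a pattern found in 13.8% of all genes tested. The median log2 fold change of these 7 genes was -0.30. None reached both limits in edgeR's quasi-likelihood test, in its likelihood ratio test, in DESeq2 or in limma-voom, and 5 had an unadjusted p under 0.05. *ADR1-L1* (AT4G33300), a helper receptor that works with EDS1 and PAD4, measured 125, 115 and 125 CPM in treated seedlings, against 149, 158 and 162 CPM in mock seedlings. Its log2 fold change was -0.36 (SE 0.07, adjusted p = 0.00632). *EDS1B*, the second copy of *EDS1*, measured 14.6, 14.7 and 15.1 CPM in treated seedlings, against 18.4, 20.2 and 21.7 CPM in mock seedlings, at -0.45 (SE 0.09, adjusted p = 0.00856). *NRG1.2* (-0.37) and *ADR1-L2* (-0.28) were the others to pass, whereas *ADR1* itself had 0.11 (adjusted p = 0.455). The summed level of the 7 was 311 to 316 CPM in treated libraries and 371 to 395 CPM in mock libraries.

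Among 13 NPR and TGA co-factors 1 was lower by adjusted p, against 4.52% of all genes tested, and the median was -0.07. An unadjusted p under 0.05 was found for 3 of the 13, about the 23.3% of all genes tested. That gene was *NPR3* (AT5G45110), an SA receptor that represses defense genes. It measured 55.3, 56.5 and 54.0 CPM in treated seedlings, against 86.9, 76.3 and 74.4 CPM in mock seedlings. The groups were widely separated, and the log2 fold change of -0.52 (SE 0.07, edgeR's quasi-likelihood test, adjusted p = 0.00104) fell short of the fold limit. *NPR4*, the related receptor, had -0.07 (adjusted p = 0.672). *NIMIN2*, which binds NPR1 like NIMIN1, measured 7.48, 11.4 and 10.7 CPM in treated seedlings, against 16.8, 13.2 and 13.0 CPM in mock seedlings. Those libraries did not overlap, yet the test was narrowly missed at -0.54 (SE 0.16, adjusted p = 0.0538). The 7 TGA factors, which carry NPR1 to *PR* promoters, had log2 fold changes between -0.11 and 0.13. None of the 13 was called by both limits in edgeR's quasi-likelihood or likelihood ratio test, in DESeq2 or in limma-voom.

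Of 12 other transcription regulators 3 were lower by adjusted p, against 4.52% of all genes tested, with a median of -0.18. An unadjusted p under 0.05 was found for 5 of the 12, against 23.3% of all genes tested. By both limits 1 was called lower in edgeR's quasi-likelihood test, against 1.54% of all genes tested. DESeq2, limma-voom and the likelihood ratio test each called 2, adding *WRKY53*. *WRKY46* (AT2G46400), a WRKY factor induced by SA, measured 23.8, 28.1 and 23.0 CPM in treated seedlings, against 52.7, 42.9 and 37.9 CPM in mock seedlings. No treated library came near a mock library, and *WRKY46* was called lower at -0.83 (SE 0.12, edgeR's quasi-likelihood test, adjusted p = 0.000988) in this fit and in all 15 alternatives. *WRKY53* (AT4G23810), a WRKY factor of leaf senescence and defense, measured 18.9, 32.1 and 18.9 CPM in treated seedlings, against 42.3, 30.8 and 32.6 CPM in mock seedlings, with overlap through treated replicate 2, and did not pass at -0.60 (SE 0.19, edgeR's quasi-likelihood test, adjusted p = 0.0651). *CAMTA3* (AT2G22300), a calmodulin-binding repressor of *EDS1*, *CBP60G* and *SARD1*, measured 81.7, 84.4 and 85.8 CPM in treated seedlings, against 99.6, 105 and 104 CPM in mock seedlings. It was lower by adjusted p at -0.30 (SE 0.06, adjusted p = 0.0128), without overlap. *WRKY18*, which partly restrains basal defense, was also lower by adjusted p (-0.33, adjusted p = 0.0272). *WRKY70*, which acts downstream of NPR1, had 0.03 (adjusted p = 0.831).

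The 11 genes of SA and N-hydroxypipecolate synthesis and export had a median of 0.01. By adjusted p 1 of the 11 was higher, against 5.10% of all genes tested. An unadjusted p under 0.05 was found for 4 of the 11, against 23.3% of all genes tested. *PAL1* (AT2G37040), the first enzyme of the phenylpropanoid pathway and of the minor route to SA, measured 243, 241 and 246 CPM in treated seedlings, against 185, 189 and 196 CPM in mock seedlings. It was higher by adjusted p at 0.36 (SE 0.07, adjusted p = 0.00487), below the fold limit. *PBS3*, which conjugates isochorismate to glutamate after ICS1, measured 26.1, 27.1 and 23.8 CPM in treated seedlings, against 23.7, 19.6 and 21.6 CPM in mock seedlings. The separation was small, and *PBS3* did not pass at 0.25 (SE 0.09, adjusted p = 0.122). *EDS5*, the exporter of isochorismate from the chloroplast, had 0.01 (adjusted p = 0.938). In this list none was called by both limits in edgeR's quasi-likelihood or likelihood ratio test, in DESeq2 or in limma-voom.

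Among 8 genes that modify or break down SA none passed the adjusted limit in edgeR's quasi-likelihood test, 3 had an unadjusted p under 0.05, and the median was 0.14. By both limits the likelihood ratio test called 1 of them, and DESeq2 and limma-voom called none. *UGT74F1* (AT2G43840), an SA glucosyltransferase, measured 3.13, 2.76 and 2.68 CPM in treated seedlings, against 2.28, 1.15 and 2.00 CPM in mock seedlings, at 0.65 (SE 0.23, adjusted p = 0.107). *BSMT1* (AT3G11480), which makes methyl salicylate, measured 6.67, 7.13 and 7.50 CPM in treated seedlings, against 5.92, 5.27 and 5.69 CPM in mock seedlings, at 0.33 (SE 0.12, adjusted p = 0.126). Neither gene overlapped between the groups.

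Of 7 further output genes 1 was called higher and 1 lower, against 1.73% and 1.54% of all genes tested, with a median of -0.16. An unadjusted p under 0.05 was found for 4 of the 7, against 23.3% of all genes tested. *SAG13* (AT2G29350), a short-chain dehydrogenase induced in senescence and by pathogens, measured 98.7, 94.0 and 105 CPM in treated seedlings, against 58.8, 56.2 and 64.2 CPM in mock seedlings. It was called higher at 0.73 (SE 0.08, edgeR's quasi-likelihood test, adjusted p = 0.000115), the opposite direction to *PR5*. *BG3* (AT3G57240), a glucanase gene next to *PR2*, measured 15.7, 19.1 and 21.4 CPM in treated seedlings, against 26.0, 32.7 and 26.5 CPM in mock seedlings. It was called lower at -0.60 (SE 0.12, adjusted p = 0.00987), and the call was lost without treated replicate 1 (-0.48, under the fold limit) or mock replicate 2 (adjusted p = 0.0546). Of the PR-type genes of other pathways, 4 of 6 were in the table, 1 had an unadjusted p under 0.05 and the median was 0.03. *OSM34* (AT4G11650), an osmotin-like relative of *PR5*, was higher by adjusted p at 0.48 (SE 0.09, adjusted p = 0.00540). *PDF1.2A* (AT5G44420), a defensin used as a marker of jasmonate and ethylene signaling, had -0.15 (SE 0.09, adjusted p = 0.371). None of these 4 was called by both limits in edgeR's quasi-likelihood or likelihood ratio test, in DESeq2 or in limma-voom.

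**Figure D4:**
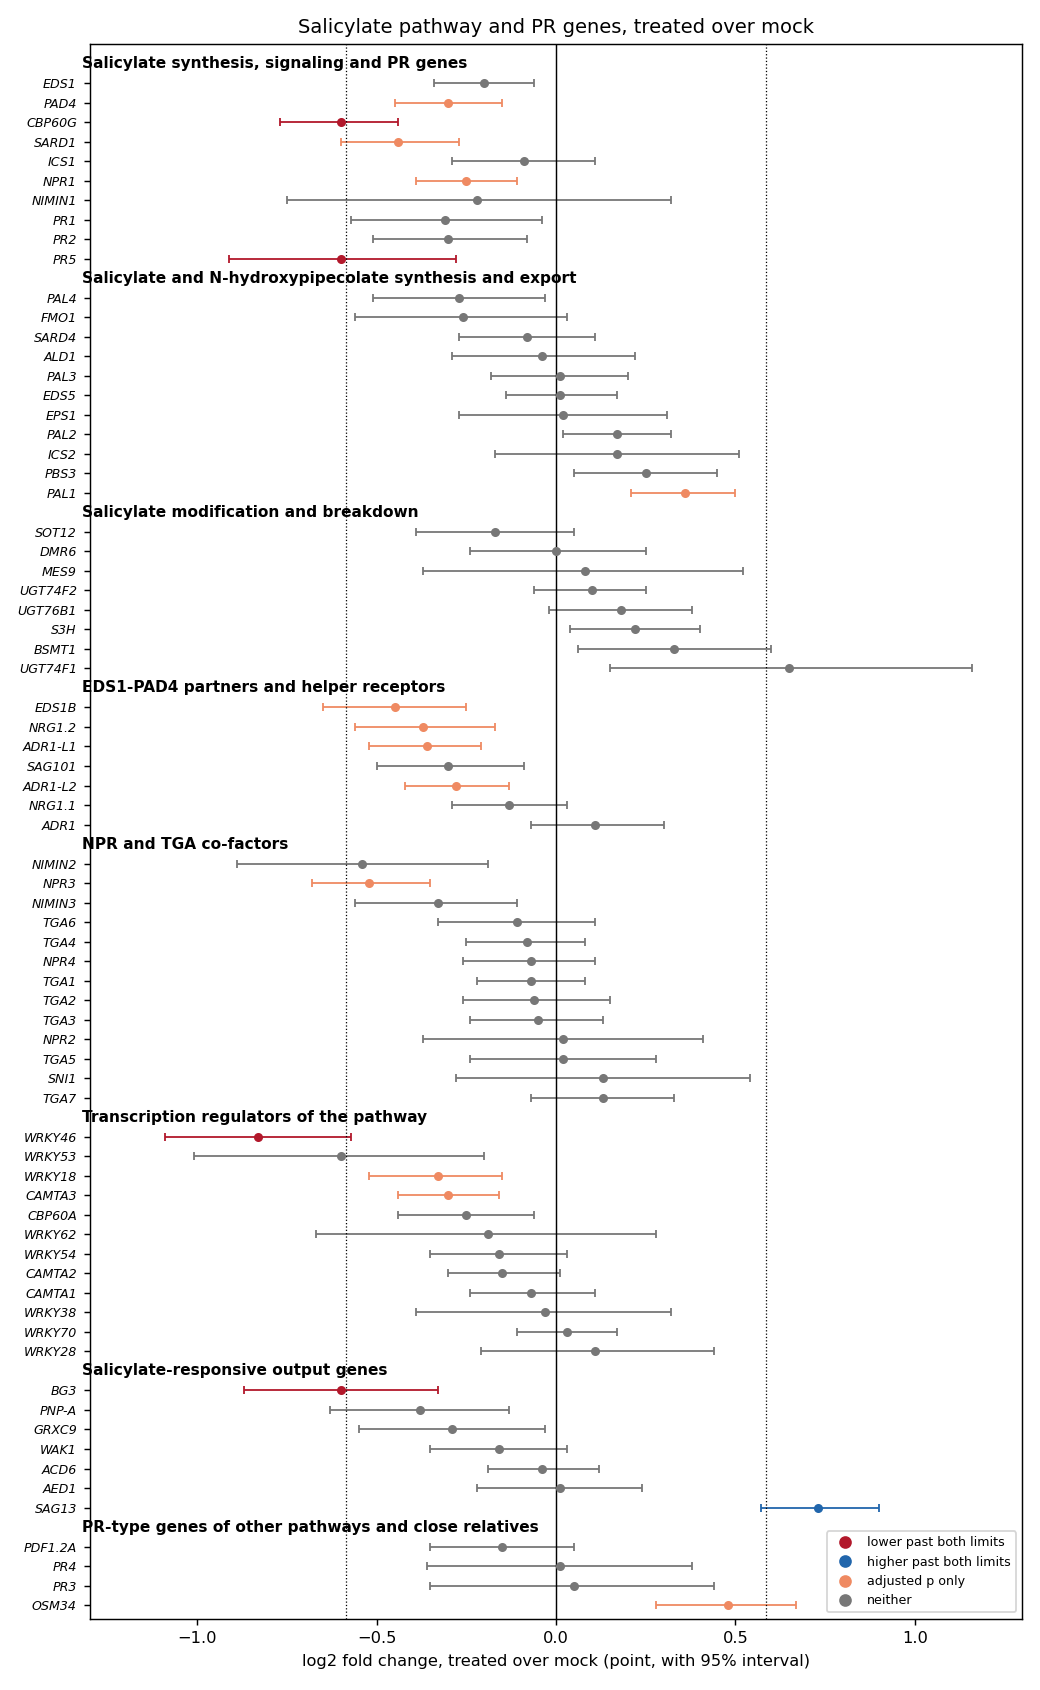
Log2 fold changes of treated over mock (horizontal axis, points) with 95% confidence intervals (bars) for the 10 genes and the 62 further listed genes in the table, grouped by list, with dotted lines at the fold limit of 1.5. Genes of the EDS1 and PAD4 group lie mostly left of 0 (median -0.30), those of synthesis and export lie around 0 (median 0.01), and *SAG13* lies farthest to the right at 0.73.

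Marker lists of tissues and conditions moved between the same libraries, and their part in the results above was not tested. Of all genes tested, 1.54% were called lower and 1.73% higher, and 4.52% and 5.10% by adjusted p alone. All 6 root hair markers were called higher in treated seedlings, and their summed level was 25.8 to 32.5 CPM in treated libraries and 9.12 to 14.1 CPM in mock libraries. By both limits limma-voom and the likelihood ratio test also called 6, but DESeq2 called 4. Counts were low for some, down to 4 reads in a library for *EXPA18*. Among 6 measured root markers, 2 were called higher (246 to 280 CPM summed in treated and 200 to 233 CPM in mock libraries), and the root cap marker *SMB* was not in the table. None of 6 leaf mesophyll markers was called by both limits in edgeR's quasi-likelihood or likelihood ratio test, in DESeq2 or in limma-voom, and 3 had an unadjusted p under 0.05. The list went both ways: *CA1* was higher by adjusted p at 0.55, whereas *LHB1B1* had -0.56 (adjusted p = 0.155) and *CAB1* -0.30 (adjusted p = 0.380). Their sum was 26484 to 38906 CPM in treated and 25693 to 35013 CPM in mock libraries. All 8 genes listed as markers of a rapid response to handling were lower by adjusted p and 6 of them by both limits. Their log2 fold changes lay between -3.17 and -0.51. They included *WRKY40*, which was in no pathway list, at -1.23 (edgeR's quasi-likelihood test, adjusted p = 3.03e-05). Their sum was 154 to 182 CPM in treated libraries and 316 to 321 CPM in mock libraries. The sample labels do not say whether handling differed between the groups. Of 7 clock genes *LHY* and *CCA1* were called higher, and *TOC1* and *PRR7* were lower by adjusted p. The sum of all 7 was 510 to 541 CPM in treated and 475 to 508 CPM in mock libraries. Of 6 leaf senescence markers *SAG12* was called higher and *SEN1* lower (83.0 to 99.4 CPM summed in treated and 102 to 110 CPM in mock libraries).

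Genes whose pattern over the 6 libraries was most like that of *PR1* were sought among 19345 genes with a mean of at least 1 CPM, by the root mean square difference of centred log2 CPM, whose median over all genes was 0.274. The closest was *SDR3* (AT2G47130) at 0.036, with 8.48, 11.6 and 11.8 CPM in treated seedlings, against 13.0, 15.0 and 12.4 CPM in mock seedlings. *COL3* (AT2G24790) at 0.038 and AT3G07350 at 0.063 came next. All 3 shared the low value in treated replicate 1, and none passed the test between the groups (adjusted p of 0.161, 0.210 and 0.182 in edgeR's quasi-likelihood test). Because these genes were picked for likeness to *PR1* over the same libraries, neither trait is a separate finding. The nearest of the other 9 genes described here was *EDS1*, at rank 1095 with 0.179.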

How the data were processed

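Whole seedlings of *A. thaliana* Col-0 were sequenced as 3 treated and 3 mock libraries, which the study describes as biological replicates. The authors deposited whole-number gene counts made with HTSeq-count, after trimming (Trimmomatic 0.36) and alignment with HISAT2 2.1.0 to TAIR10. The strand setting of the counting was not stated. The deposited CPM equal these counts over the library total within 3.6e-11 and were used only to check them. The table also holds the authors' own edgeR comparison (log2 fold changes, average log2 CPM, p-values and FDR), which was not used. Every gene in it reached a CPM of 1 in 2 or more libraries. The number of value columns without a sample was 0.

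Counts were fitted in R 4.3.3 with edgeR 4.0.16 (filterByExpr, which removed 1 gene, TMM factors between 0.9706 and 1.0182, quasi-likelihood test with no covariate). The 10 genes, the pathway lists and the marker lists were chosen with earlier results of these data known. The text names all 10 genes, each pathway gene past both limits, in each list the 2 of smallest adjusted p, and the 3 genes most like *PR1*. Other genes named were picked after their values were seen.

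Alternatives were DESeq2 size factors, upper quartile factors, library size alone, no filter, a filter of 1 CPM in all 6 libraries, DESeq2 1.42.0, limma-voom (limma 3.58.1), the likelihood ratio test, a replicate block, other thresholds and each library left out. The code was tested on simulated data. Positions and sequences are from the RefSeq annotation of TAIR10.1, matched by locus, in which 19549 genes of the table were found. Similar copies were sought with blastn 2.17.0. Python 3.11.15 was used for tables (pandas 2.3.3, numpy 2.4.6), exact tests (scipy 1.17.1) and plots (matplotlib 3.10.9).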

Additional observations from a re-analysis of the deposited data

How the results depend on the processing

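With 3 libraries a group, the number of the 10 genes called by both limits was 2, also under the other normalizations, filters and tools and with a replicate block, 5 by adjusted p alone, 0 at a fold of at least 2, and 0 to 2 with each library left out in turn (0 without treated replicate 1 or mock replicate 2). By adjusted p alone, 5 genes passed, 4 in DESeq2 (without *NPR1*), 3 with a replicate block (*CBP60G*, *SARD1* and *PR5*), and 2 to 6 with each library left out. The labels link same-numbered libraries only by the number. Deviations from the group means correlated at -0.193, -0.281 and 0.151 for equal numbers, and at -0.331 to 0.431 for unequal numbers. With 3 libraries a group, these values cannot show whether any libraries were handled together. The further listed genes called numbered 3, 4 in DESeq2 and in limma-voom (adding *WRKY53*), 5 in the likelihood ratio test, 12 by adjusted p alone, 0 at a fold of at least 2, and 2 to 5 with each library left out (5 without treated replicate 2). Over all genes 642 were called, 1888 by adjusted p alone and 188 at a fold of at least 2, and 547 with a replicate block. *NIMIN1* lay between -0.44 and 0.06 with each library left out, changing sign without mock replicate 1. Of 195 values for single genes under these alternatives, 185 kept their direction and their call by both limits. Most of these genes were not called to begin with, so for them this meant staying uncalled. With all libraries kept, the estimates of *CBP60G* (-0.61 to -0.60) and *PR5* (-0.60 to -0.59) hardly moved. Of the 185 values, 11 crossed the adjusted p limit (*NPR1* in 6, *PAD4* in 4 and *PR2* in 1). A call was lost in 9 values: *CBP60G* in 3, *PR5* in 4 and *BG3* in 2 of the 6 fits without 1 library. In the 3 fits of *CBP60G* the adjusted p still passed, and the fold change fell just short of the limit. Each of these fits also had 1 library fewer, and the cause of the lost calls was not tested. Of the 10 genes, *NIMIN1* had the fewest reads, at 60 to 95 per library, and *UGT74F1*, *WRKY62* and *MES9* among the further genes had at most 69.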

Other observations

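*CBP60G* and *SARD1* belong to a family of calmodulin-binding proteins whose other members were listed after the values above were seen. *CBP60B* (AT5G57580) measured 79.5, 73.2 and 75.7 CPM in treated seedlings, against 87.8, 90.7 and 90.9 CPM in mock seedlings. The groups did not overlap, and *CBP60B* was lower by adjusted p at -0.24 (SE 0.07, edgeR's quasi-likelihood test, adjusted p = 0.0405). *CBP60C* had -0.15 (adjusted p = 0.227), *CBP60D* 0.00, *CBP60E* 0.14 and *CBP60F* -0.19 (adjusted p = 0.370). None of these 5 was called by both limits in edgeR's quasi-likelihood or likelihood ratio test, in DESeq2 or in limma-voom, and 1 had an unadjusted p under 0.05. *CBP60A*, a relative that restrains immunity, had every treated library below every mock library at -0.25 (adjusted p = 0.0981).

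The secretory pathway genes that NPR1 is known to raise together with *PR* genes were also listed after the values were seen. Of 7 such genes none passed by adjusted p, none was called by both limits in edgeR's quasi-likelihood or likelihood ratio test, in DESeq2 or in limma-voom, and 2 had an unadjusted p under 0.05. The chaperone gene *BIP2* measured 316, 338 and 322 CPM in treated seedlings, against 287, 280 and 297 CPM in mock seedlings. It did not pass at 0.17 (SE 0.07, adjusted p = 0.147), although the groups did not overlap. *CRT3*, a calreticulin, had -0.19 (adjusted p = 0.163).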
